A study of Mus musculus with 6 samples.

Results

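The genes that start, restrain and dissolve a fibrin clot, and those that tie platelets to the vessel wall, were followed in the lungs of endotoxaemic mice given saline or recombinant human thrombomodulin (rhTM). They were F3 (tissue factor), Tfpi and Tfpi2 (tissue factor pathway inhibitors), Plat, Plau and Plaur (the plasminogen activators and a receptor), F13a1 (a factor XIII subunit), Vwf (von Willebrand factor) and Adamts13 (its protease). These 9 genes were chosen for their roles in clotting, out of 22815 genes with a matched probe. The 9 genes have 14 probes on the array, and the probe with the highest mean signal over the 6 arrays stands for each. By the sample labels and methods, male C57BL6 mice, 10 weeks old, were starved for 16 h and injected i.p. with LPS at 20 mg·kg−1, so every mouse of both groups was endotoxaemic and the comparison has no arm without LPS. At 3 and 24 h after LPS, 3 mice received saline and 3 received rhTM, a soluble form of the thrombin-binding receptor of endothelium, and lung RNA was taken at 30 h. Each mouse had an Agilent array of its own, read in 1 colour.

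Tissue factor is the membrane protein that binds circulating factor VII and starts clotting, and LPS is known to induce it in monocytes, epithelium and other cells. Tfpi blocks the tissue factor complex at the endothelial surface. Tissue-type and urokinase-type plasminogen activators, encoded by Plat and Plau, turn plasminogen into plasmin, which digests fibrin, whereas factor XIII cross-links fibrin and makes it harder to digest. Von Willebrand factor is stored in endothelial cells and platelets and captures platelets under flow, and Adamts13 trims its long multimers.

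None of the 7 genes that could be tested was found to differ between rhTM-treated and saline-treated lungs by the scanner output, and Tfpi2 and Adamts13 were too dim for a test. Of the 7 genes, 4 had a higher and 3 a lower mean in the rhTM group, and 0 passed an adjusted p of 0.05 in limma's moderated test with Benjamini-Hochberg adjustment over all 16370 genes. The share of all genes that passed was 0%. Without adjustment, 0 members and 306 of all genes (1.87%) had p below 0.05. The median log2 fold change was 0.02 over the 7 genes and 0.0026 over all genes tested. On the array of rhTM mouse 1, which was the highest or lowest of the 6 for 56.4% of all genes, F3, Plat and Plaur were the highest of the 6 arrays, and Tfpi, Plau, F13a1 and Vwf the lowest.

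**Figure D1:**
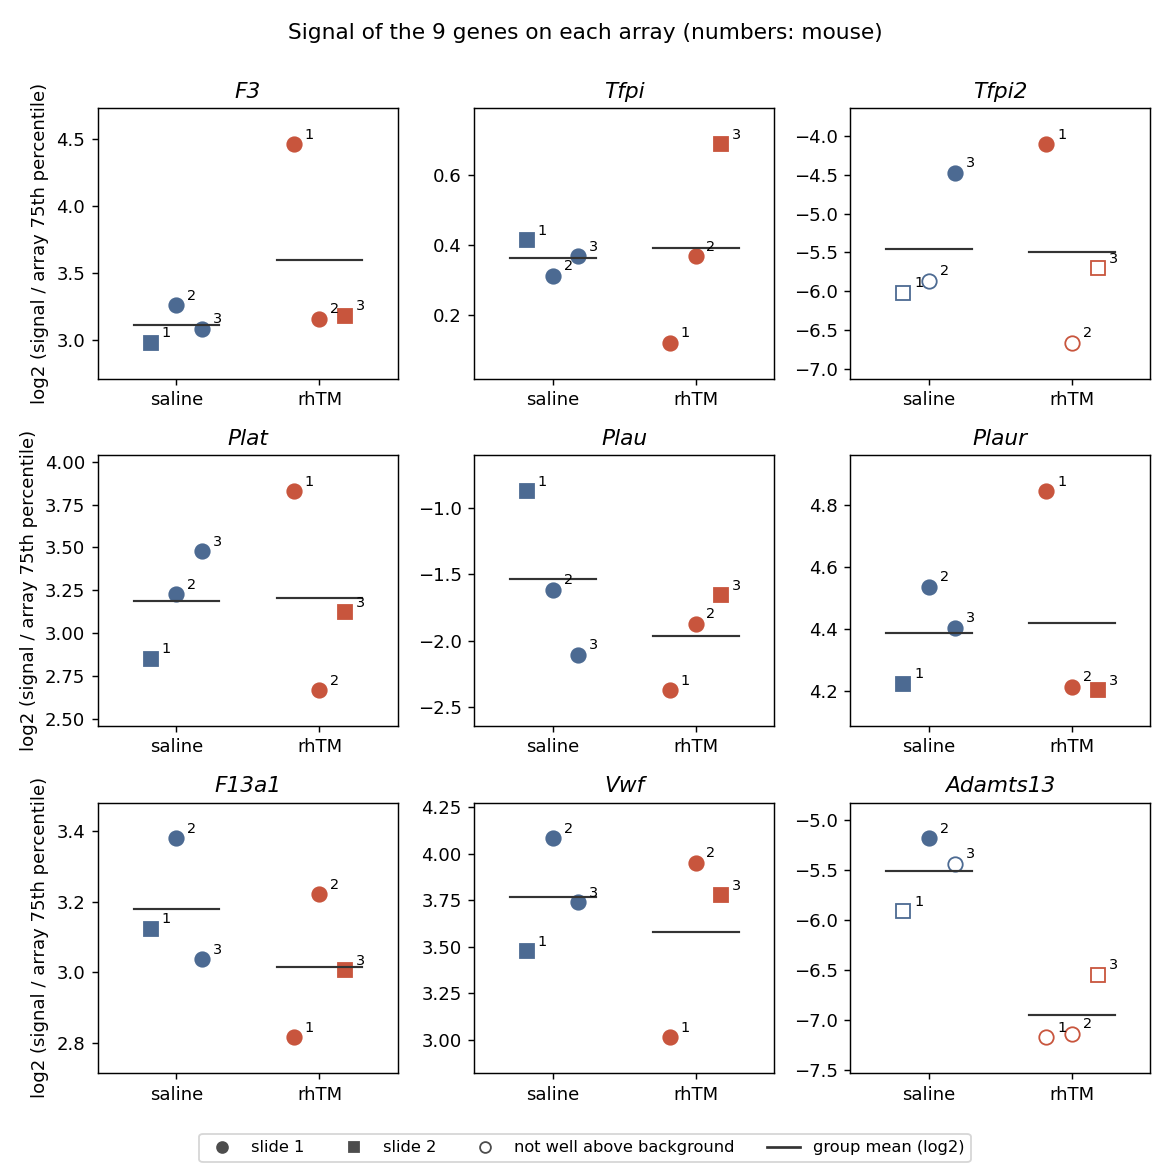
Signal of each of the 9 genes on each array, as log2 of the signal over the array's 75th percentile, with a separate vertical scale for each gene. Points are mice, numbered within their group, circles and squares are the 2 slides, open points were not well above background, and bars are group means. The rhTM mouse 1 point is the highest for F3, Plat and Plaur and the lowest for Tfpi, Plau, F13a1 and Vwf.

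Some facts about the arrays bear on every value below. Between 36002 and 40503 probes were well above background per array, and 75th percentiles ran from 675 to 850 across arrays. The deposit holds 2 assignments that disagree: in the authors' value table, the column of saline mouse 1 holds the scanner values of rhTM mouse 2, and the reverse. Signals below follow the scanner output, and the results by the value table are set beside them. The second of the 2 slides carried saline mouse 1 and rhTM mouse 3 according to the scanner output, but rhTM mice 2 and 3 and no saline mouse according to the value table. The RNA spike-ins of the array labelled saline mouse 1 had a slope of 0.826, against 1.07 to 1.09 on the other arrays. Of the lung markers, the surfactant gene Sftpc had a signal of 644 ± 160 times the 75th percentile in saline lungs (SD, n = 3), and all 6 markers of lung epithelium and all 10 of endothelium were detected and tested. Of 6 hepatocyte markers, Alb, Apoa1 and Ttr were not. In whole lung, fewer cells of a type and less RNA per cell cannot be told apart.

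F3, the initiator, gave signals of 7.88, 9.59 and 8.49 times the array's 75th percentile in saline mice 1, 2 and 3, and of 22.0, 8.93 and 9.08 in rhTM mice 1, 2 and 3. Hence rhTM mice 2 and 3 lay inside the saline range, and rhTM mouse 1 lay above every other array. The group means were 13.3 ± 7.51 with rhTM and 8.66 ± 0.866 with saline (SD, n = 3). On the log2 scale the difference was 0.49 (standard error 0.35, 95% interval -0.35 to 1.33, adjusted p = 0.9999 from limma), and the exact permutation test gave p = 0.4 (two-sided), where 3 mice against 3 cannot go below 0.10. Without rhTM mouse 1 the difference was 0.06. The F3 signal of that mouse was 2.47-fold the median of the other 5 arrays, which themselves spanned only 0.28 on the log2 scale.

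The promoters of F3 and of Plaur are shown because both genes were highest in the same mouse and both are in the RefSeq promoter table (build GRCm38.p6), which held 6 of the 9 genes. Each run is the 250 bases before the start of transcription, on the plus strand, at chr3:121723287-121723536 for F3 and chr7:24462233-24462482 for Plaur. Capitals mark matches, on either strand, to the letters TGANTCA of the AP-1 site and GGGCGG of the Sp1 site.
F3: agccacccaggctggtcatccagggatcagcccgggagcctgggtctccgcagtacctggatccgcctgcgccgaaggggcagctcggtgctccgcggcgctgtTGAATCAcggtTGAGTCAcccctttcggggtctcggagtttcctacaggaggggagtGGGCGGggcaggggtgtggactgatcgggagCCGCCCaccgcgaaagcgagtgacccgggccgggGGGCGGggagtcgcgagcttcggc
Plaur: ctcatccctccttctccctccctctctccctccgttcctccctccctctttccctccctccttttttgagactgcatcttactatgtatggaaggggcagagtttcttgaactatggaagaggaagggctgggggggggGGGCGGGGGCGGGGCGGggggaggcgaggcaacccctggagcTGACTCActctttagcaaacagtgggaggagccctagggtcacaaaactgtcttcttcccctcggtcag

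The F3 window held AP-1 letters starting 146 and 135 bases before the start, and the Plaur window held them 69 bases before it. AP-1 letters were found in 6.75% of 32851 promoter windows of that length, and Sp1 letters in 32.7%. Sp1 letters occurred 3 times in each of these windows, and in Plaur the last pair shared a base. The TATA letters TATAAA (12.4% of windows) and the NF-kappaB consensus GGGRNWYYCC (3.90% of windows), searched on both strands too, were not matched in either window. In it R is A or G, W is A or T, Y is C or T and N is any base. Only exact matches were counted, so the search does not show that such a site is absent. The letters cggagtttcc in the F3 window depart from this consensus at the first base only. These matches describe the letters only, since no binding was measured.

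Tfpi is the main brake on tissue factor. Its signals were 1.33, 1.24 and 1.29 in saline mice 1 to 3, and 1.09, 1.29 and 1.61 in rhTM mice 1 to 3. The saline mice lay within the range of the rhTM mice, which held both the lowest and the highest array. The log2 difference was 0.03 (standard error 0.16, 95% interval -0.36 to 0.42, adjusted p = 0.9999 in limma, exact permutation p = 0.8). The other probes of Tfpi, both above background on every array, gave 0.08 and 0.0022. The sign rested on single arrays, being -0.12 without rhTM mouse 3 and 0.16 without rhTM mouse 1.

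Tfpi2, a relative of Tfpi that also inhibits plasmin, was near the detection limit. It was well above background on 2 of 6 arrays, saline mouse 3 at 0.0449 and rhTM mouse 1 at 0.0580, and the other four arrays gave 0.0099 to 0.0192. No test was made for Tfpi2, as neither group had 3 measured arrays.

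Plat, the tissue-type activator, gave 7.22, 9.37 and 11.2 in saline mice 1 to 3, and 14.2, 6.36 and 8.71 in rhTM mice 1 to 3. Both the highest and the lowest Plat value thus came from rhTM mice. The means were 9.76 ± 4.03 with rhTM and 9.25 ± 1.97 with saline (SD, n = 3), a log2 difference of 0.02 (standard error 0.31, 95% interval -0.72 to 0.76, adjusted p = 0.9999 in limma, exact permutation p = 1.0). The sign was not stable. It turned to -0.29 without rhTM mouse 1 and to -0.15 without saline mouse 1.

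Plau, the urokinase-type activator, was dimmer, at 0.545, 0.327 and 0.233 in saline mice 1 to 3 and 0.194, 0.274 and 0.317 in rhTM mice 1 to 3. The groups overlapped, with saline mouse 1 above all other arrays. The log2 difference was -0.43 (standard error 0.34, 95% interval -1.23 to 0.37, adjusted p = 0.9999 in limma, exact permutation p = 0.4). Without saline mouse 1 it was -0.11. The second probe of Plau was well above background only on rhTM mouse 1, at 0.177, where the other five arrays gave 0.0038 to 0.0094. The 2 probes therefore disagreed on that mouse, which was the lowest of 6 by the brighter probe.

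Plaur encodes the receptor that holds urokinase on leukocytes and other cells. It gave 18.7, 23.2 and 21.2 in saline mice 1 to 3, and 28.8, 18.6 and 18.4 in rhTM mice 1 to 3. As with F3, rhTM mouse 1 was above every other array, and here the other two rhTM mice were just below every saline mouse. The log2 difference of 0.03 (standard error 0.21, 95% interval -0.46 to 0.52, adjusted p = 0.9999 in limma, exact permutation p = 1.0) became -0.18 without rhTM mouse 1.

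F13a1, which encodes the catalytic subunit of factor XIII and is made by monocytes, macrophages and megakaryocytes, gave 8.72, 10.4 and 8.21 in saline mice 1 to 3. In rhTM mice 1 to 3 it gave 7.04, 9.32 and 8.03. Both lowest values were from rhTM mice, but rhTM mouse 2 exceeded saline mice 1 and 3. The log2 difference was -0.17 (standard error 0.16, 95% interval -0.54 to 0.21, adjusted p = 0.9999 in limma, exact permutation p = 0.4), and its second probe gave -0.23. F13a1 was the only gene of the 7 whose difference kept its sign in all 19 other settings tried, from -0.40 to -0.07. Some of these settings could not move it. Changed filters, slide or replicate blocks on the scanner output and the methods' t-test all leave it at -0.17, so they are no separate check of the sign.

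Vwf gave 11.1, 17.0 and 13.4 in saline mice 1 to 3, and 8.08, 15.5 and 13.7 in rhTM mice 1 to 3. The rhTM mice 2 and 3 lay within the saline range and rhTM mouse 1 below it. The means were 12.4 ± 3.86 with rhTM and 13.8 ± 2.94 with saline (SD, n = 3), a log2 difference of -0.19 (standard error 0.28, 95% interval -0.85 to 0.48, adjusted p = 0.9999 in limma, exact permutation p = 0.7). Without rhTM mouse 1 the difference was 0.10.

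Adamts13 was close to background. Its brighter probe gave 0.0166, 0.0275 and 0.0230 in saline mice 1 to 3 and 0.0070, 0.0071 and 0.0107 in rhTM mice 1 to 3. These groups do not overlap, as for 5.52% of all genes tested, but the probe was well above background on saline mouse 2 only, and no fold is given because the saline mean did not exceed the detection limit of the rhTM arrays. The second Adamts13 probe was well above background on 0 arrays and gives no direction.

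**Figure D2:**
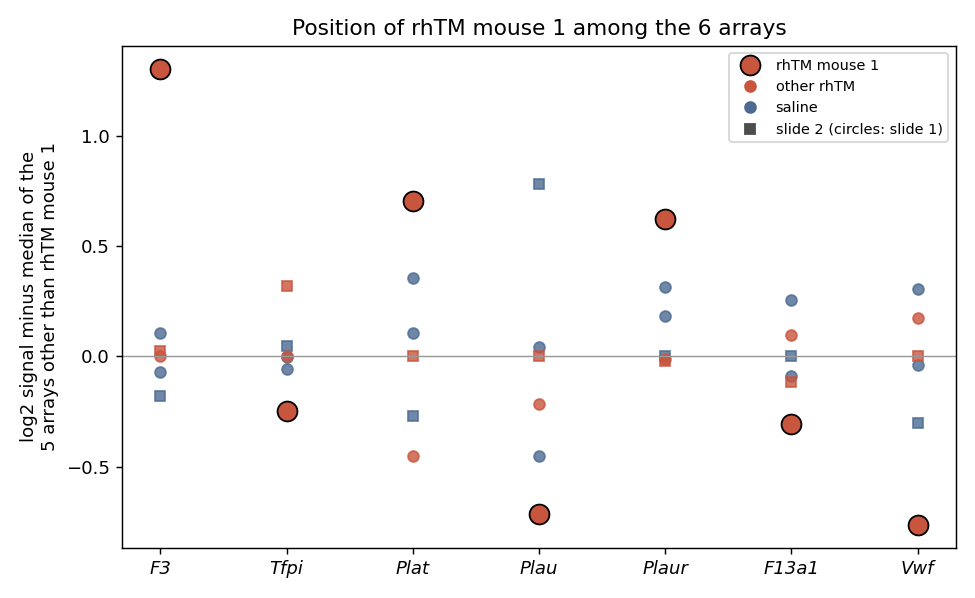
Log2 signal of the 7 tested genes on each array, less the median of the 5 arrays other than rhTM mouse 1, which is drawn large with a black edge. Circles and squares are the slides. For F3 the rhTM mouse 1 point lies at 1.30 while the other arrays sit within 0.28 of each other.

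The rhTM mouse 1 array was the highest or lowest of the 6 for 7 of the 7 tested genes and for 56.4% of all genes, and so it stood apart over the array as a whole. Each of the other arrays was an extreme for 17.0% to 35.1% of all genes. For F3, Plaur and Vwf, rhTM mouse 1 was farther from the median of the others than those others spanned, as it was for 27.3% of all genes. The same held for Plau on saline mouse 1 (6.48% of all genes) and for Tfpi on rhTM mouse 3 (9.27% of all genes). Relative to the median of the other 5 arrays, the log2 signal of rhTM mouse 1 was 1.30 for F3, 0.71 for Plat and 0.62 for Plaur. It was -0.76 for Vwf, -0.71 for Plau, -0.31 for F13a1 and -0.25 for Tfpi. The genes nearest to F3 in profile over the 6 arrays, by root mean square difference of centred log2 values, were H1f2 at 0.09, Egr1 at 0.12 and Socs3 at 0.13, where the profile of F3 itself had a root mean square of 0.50. Those nearest to Vwf were Cd248 at 0.06, Slc46a1 at 0.06 and Ddah1 at 0.07.

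Cell type markers were read beside these values. Of all 16370 genes, 4874 were the highest and 4359 the lowest of the 6 arrays on rhTM mouse 1. The marker counts below are to be read against these numbers. On rhTM mouse 1 the summed signal of 11 platelet and megakaryocyte genes was 29.3, against 11.6 to 16.1 on the other arrays. Averaged over each group, most of this sum came from Pf4 alone. Vwf and F13a1, both also made by megakaryocytes, were lowest on the rhTM mouse 1 array. The 10 endothelial genes summed to 321 there and to 278 to 325 elsewhere, with 4 of the 10 lowest and 3 highest on rhTM mouse 1, where Vwf was lowest. The 12 monocyte and macrophage genes summed to 660 there and to 643 to 707 elsewhere, with 7 of 12 lowest on rhTM mouse 1, as F13a1 was. The 9 neutrophil genes summed to 1204, the highest of the 6 arrays, against 926 to 1086, and 5 of the 9 were highest there, as Plaur was. The 5 erythroid genes summed to 1431 there and to 1032 to 1394 elsewhere, with 3 of 5 highest and 0 lowest on rhTM mouse 1 and a median over genes of 0.93 for its log2 signal less the median of the other 5 arrays. The 3 detected hepatocyte genes summed to 3.75 there and to 4.26 to 8.86 elsewhere, and the 6 epithelial genes to 1612 there and to 1596 to 2194 elsewhere. Both slide 2 arrays, saline mouse 1 and rhTM mouse 3, stood apart in these lists. Their hepatocyte sums were 8.68 and 8.86, against 3.75 to 4.63 on slide 1, their epithelial sums 2194 and 2014, against 1596 to 1682, and their fibroblast sums 140 and 175, against 113 to 120. The brightest markers were Egfl7 of endothelium (169 ± 20.2 with rhTM, 171 ± 22.4 with saline), Pf4 of platelets (16.6 ± 7.08 and 11.4 ± 2.16, a higher mean with rhTM unlike 8 of the 11 genes of its list), Ly6c2 of monocytes (278 ± 12.9 and 302 ± 9.05) and S100a9 of neutrophils (493 ± 55.5 and 482 ± 46.1; SD, n = 3 each). The part of these cells in the values of the 9 genes was not tested. Between the groups, 0 of the genes in any of these lists passed limma's adjusted p. Of the 12 monocyte and macrophage genes, 9 had a lower mean with rhTM (median log2 difference -0.16, and -0.12 with 10 lower by the value table), and the groups did not overlap for 4, against 5.52% of all genes. F13a1, at -0.17, lay on the same side as these, and no part of them in its value was tested. Of the 11 platelet and megakaryocyte genes, 8 had a lower mean with rhTM (median -0.24, and -0.26 by the value table), and the groups did not overlap for 1. That median was -0.08 with normexp background correction and -0.50 without the exchanged arrays. Of the 6 fibroblast genes, 5 had a higher mean with rhTM (median 0.25, and 0.22 by the value table), with overlapping groups for all 6. Their median was 0.35 without the exchanged arrays and 0.44 by the value table without rhTM mouse 1. On rhTM mouse 1 itself, 6 of the 11 platelet and megakaryocyte genes were the highest and 2 the lowest of the 6 arrays.

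By the authors' value table, which exchanges saline mouse 1 and rhTM mouse 2, 5 of the 7 genes were higher and 2 lower with rhTM, and 0 passed the adjustment over 16320 genes. Vwf came nearest. Its saline values were then 15.5, 17.0 and 13.4 and its rhTM values 8.08, 11.1 and 13.7, so that 2 of 3 saline mice were above every rhTM mouse. The log2 difference of Vwf was -0.50 (standard error 0.21, adjusted p = 0.357 in limma, exact permutation p = 0.2). Vwf was the 1 member of 7 with an unadjusted p under 0.05 by the table, a share near the 14% of all genes (2279 of 16320) that had one. For F3 it was 0.37 (adjusted p = 0.658), for F13a1 -0.23 (adjusted p = 0.461), and Plau turned to 0.23 (adjusted p = 0.785). The groups overlapped for all 7 genes by both assignments, where 5.52% of all genes did not overlap by the scanner output and 21.7% by the value table.

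**Figure D3:**
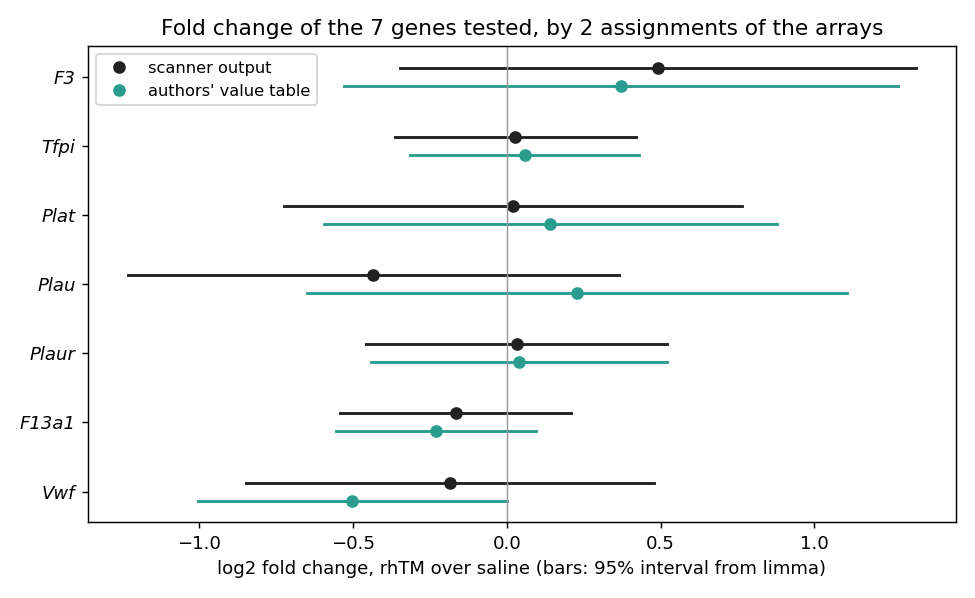
Log2 fold change of the 7 tested genes, rhTM over saline, with the 95% interval from limma, by the scanner output (black) and by the authors' value table (green). Of the 14 intervals only that of Vwf by the value table leaves out 0, and its upper end is -0.00062. An unadjusted p under 0.05 was found for 14% of all genes by the value table, so 1 of 7 is near the background.

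By the scanner output, a fit blocked on the slide called 0 members, and within slide 1 the differences were 0.64 for F3, -0.43 for Vwf and -0.26 for Plau, whereas within slide 2, with 1 mouse a group, they were 0.20, 0.30 and -0.78. The value table with the slide as a block called F3, at a log2 difference of 1.29 (standard error 0.14, adjusted p = 0.0322 from limma), and 2.65% of all genes. Vwf was then -0.91 (adjusted p = 0.0599). By that table slide 2 holds no saline mouse, so this fit sets rhTM mouse 1 alone against saline, and the F3 call rests on that mouse. Without rhTM mouse 1, a setting chosen after seeing the data, the table called 3.44% of all genes but 0 of the 7. F3 was then at -0.09 and Vwf at -0.30. The 2 rhTM arrays left are then both on slide 2, which holds no saline mouse, so slide and treatment cannot be told apart there.

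**Figure D4:**
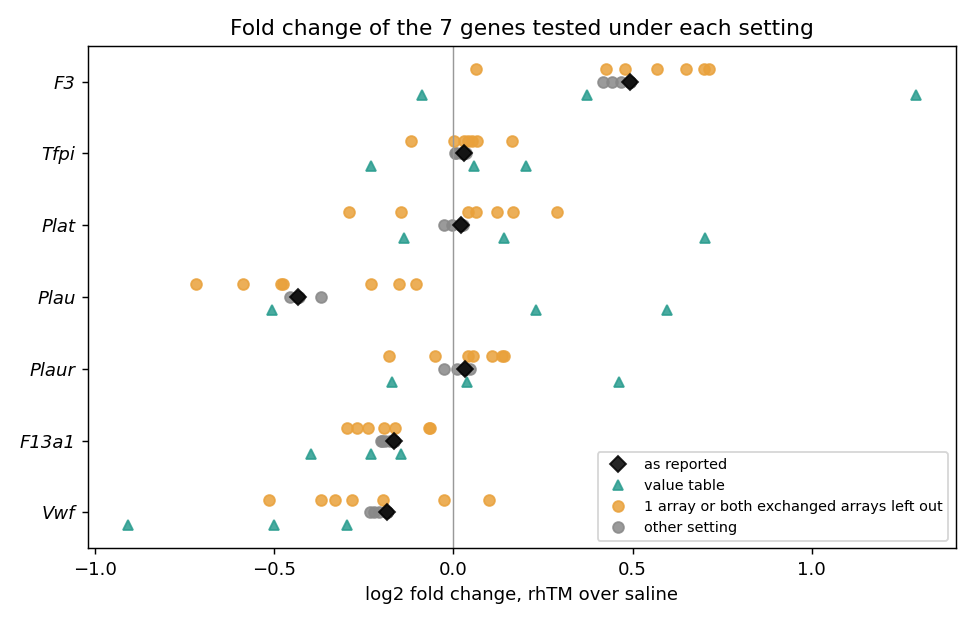
Log2 fold change of the 7 tested genes, rhTM over saline, under every setting. Black diamonds are the values as reported, green triangles come from the value table, orange points leave out arrays, and grey points change the scaling, background, filter, probe or test. F13a1 stays below 0 throughout, and F3 ranges from -0.09 to 1.29.

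Of 56 other genes listed for clotting, its inhibitors, fibrinolysis, thrombin receptors and partners of von Willebrand factor, 40 were tested, 21 with a higher and 19 with a lower mean in the rhTM group. After adjustment over all genes 0 passed, their median log2 difference was 0.0086 (-0.06 in the value table, with 17 higher and 23 lower), and 1 gene had p below 0.05 without adjustment. This was Serpinb2, an inhibitor of urokinase in myeloid cells, with signals of 0.084, 0.211 and 0.157 in saline mice 1 to 3 and 0.0658, 0.0927 and 0.0525 in rhTM mice 1 to 3. Its log2 difference was -1.04 (standard error 0.37, adjusted p = 0.9999 from limma) and -1.13 by the value table.
The groups did not overlap for 2 of the 40 genes, against 5.52% of all genes. Pros1, which encodes protein S, a cofactor of activated protein C, gave 12.7, 13.5 and 13.9 in saline mice 1 to 3 and 15.2, 15.1 and 15.0 in rhTM mice 1 to 3, a log2 difference of 0.18 (standard error 0.11) that was 0.0083 by the value table. Cpb2, a carboxypeptidase that slows fibrinolysis, was dim and its groups were barely apart. Its signals were 0.04716, 0.04913 and 0.05445 in saline mice 1 to 3 and 0.04694, 0.03817 and 0.04193 in rhTM mice 1 to 3. The log2 difference of Cpb2 was -0.25, and -0.05 by the value table. Among the rest with the smallest p, Serpine2, an inhibitor of thrombin and plasminogen activators, was at 0.44 (0.51 by the value table), Cd63, a storage granule membrane protein, at 0.31 (0.35 by the value table), and F2rl1, a protease-activated receptor, at -0.55 (-0.19 by the value table), all with an adjusted p of 0.9999 from limma.

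By role, the 10 tested clotting factors and related genes had a median log2 difference of 0.11, with 6 higher and 4 lower, but of -0.07 by the value table, with 3 higher and 7 lower. For the 7 inhibitors the median was 0.0087, with 4 higher and 3 lower, and Thbd, the mouse gene of thrombomodulin itself, was at -0.06. For the 10 genes of fibrinolysis and plasminogen binding it was -0.05, with 5 higher and 5 lower. For the 3 thrombin receptors it was -0.02 (-0.19 by the value table) and for the 10 partners of von Willebrand factor -0.02 (-0.13 by the value table). Of the 40 genes, rhTM mouse 1 was the highest for 12 and the lowest for 5 (it was an extreme for 56.4% of all genes). Outside the naming rule and chosen after its values were seen, Fgg, which encodes a fibrinogen chain, gave 1.48 on rhTM mouse 1 and 0.0189 to 0.205 on the other arrays. Procr, the endothelial protein C receptor, chosen in the same way, gave 9.43 on that mouse and 3.03 to 5.85 on the others.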

How the data were processed

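Lung RNA of 6 LPS-treated mice was measured on 1-colour arrays. The authors deposited intensity values per spot from Feature Extraction 10.7.3.1 per the file headers (the submitters' processing notes name 9.1), corrected for background within each array and not scaled between arrays, and a table of the same intensity values averaged per probe.

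Control spots and outlier-flagged spots were left out, spots of a probe were averaged, and 398 of 56605 probes were dropped. Log2 signals were taken relative to the 75th percentile of their array. Accessions were matched to RefSeq (GRCm38.p6) for 32994 probes. The array design names an older build, so probe and gene positions are not given, and the promoter coordinates are those of the RefSeq table on GRCm38.p6. Probes well above background on all 3 arrays of a group were tested, 1 probe a gene (16370 genes), in R 4.3.3 with limma 3.58.1 and Benjamini-Hochberg adjustment at 0.05 over all genes, and tested on simulated data. Single genes were also compared by an exact permutation test.

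The members and lists were chosen with earlier results of these data known. The text names all 9 members, the 3 genes with the smallest p in each direction from the clotting lists, the 3 genes nearest to F3 and to Vwf, and marker lists with their brightest genes. Alternatives were the value table, slide and replicate blocks, other background, scaling, filter and probe rules, the methods' t-test, and leaving out arrays. Lung epithelium, endothelium, platelet, monocyte and macrophage, neutrophil, fibroblast, erythroid and hepatocyte markers were read. The 6 fibroblast genes summed to 118 to 175 with rhTM and 113 to 140 with saline, with Dcn the brightest, as Hba-a1 was of the erythroid and Apoa2 of the hepatocyte genes. Precision is limited by the 3 arrays per group.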

Additional observations from a re-analysis of the deposited data

How the results depend on the processing

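Among 133 values of the 7 genes under other settings, 117 kept the direction and side of the threshold, 15 changed sign and 1 passed the threshold. Changed filters, slide or replicate blocks on the scanner output and the methods' t-test cannot move the log2 differences of these genes. Those values therefore kept their direction by construction. Averaging the probes likewise left F3, Plat, Plau, Plaur and Vwf unchanged. The number of genes past the threshold stayed at 0 except in the value table with the slide as a block (432 genes, of which 1 was a member, F3 at 1.29, and 1 a clotting list gene, Serpind1) and in the value table without rhTM mouse 1 (561 genes), a setting chosen after seeing the data. Those fits rest on few arrays, as described with the results. Sign changes by the value table were Plau at 0.23, by the table blocked on slide Tfpi at -0.23, and by the table without rhTM mouse 1 F3 at -0.088, Plat at -0.14, Plau at 0.60 and Plaur at -0.17. Quantile normalization gave Plat -0.028 and Plaur -0.027, and the 75th percentile of probes detected on all arrays gave Plat -0.0034. With each array left out in turn, the log2 difference ranged from 0.06 to 0.71 for F3, -0.12 to 0.16 for Tfpi, -0.29 to 0.29 for Plat, -0.72 to -0.11 for Plau, -0.18 to 0.14 for Plaur, -0.27 to -0.07 for F13a1 and -0.37 to 0.10 for Vwf, with 0 genes past the threshold in each. The cause of these changes was not tested. Leaving out both exchanged arrays gave 0.65 for F3 and -0.52 for Vwf, with 0 genes past the threshold and 1222 at an unadjusted p under 0.05. Mice with the same number did not deviate together (correlations of -0.30, 0.44 and -0.45), so the numbers do not pair them. With the replicate block, which cannot move the difference, F3 was at 0.49 and 0 genes passed. The methods' t-test gave 340 genes at an unadjusted p under 0.05, 0 after adjustment, and 1 gene, no member, past the methods' fold and p thresholds. Normexp used median spot signals. Dim signals limit Tfpi2 and Adamts13, which have no tested value.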
